A study of Mus musculus with 39 samples.

Results

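RNA from the brain of mice sampled 7 days after soman at 1/5 of the LD50 was compared with RNA from the brain of saline-treated mice. The LD50 is the dose that kills 50% of animals. The 2 groups were chosen by their labels and hold 3 libraries each, 6 of the 39 libraries of the study. The other libraries come from mice given soman at 1/2, 1/5 or 1/10 of the LD50, with brains taken 1, 3, 7 or 14 days later and 3 libraries in each group. Of these, the 1/10 and 1/2 LD50 groups at day 7 and the 1/5 LD50 group at day 3 were set beside the 1/5 LD50 day 7 group. Soman was given under the skin and the controls received saline, and no genotype, strain, sex or age is given in the labels. The series' design text calls the libraries biological replicates, and nothing says how many animals each was made from. The labels give neither the day at which the saline brains were taken nor the number of soman injections, so a difference from saline holds any difference in collection day as well. The brain region is not given either.

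Soman is an organophosphate nerve agent. It binds acetylcholinesterase, the serine hydrolase that breaks down acetylcholine at synapses, and transmitter that is not broken down keeps stimulating muscarinic and nicotinic receptors. High doses cause seizures, while lower doses need not give overt signs, and the brain as a whole mixes neurons and glia with vessels, the choroid plexus that makes cerebrospinal fluid, and the meninges that wrap the tissue. In such bulk RNA, fewer cells of a type and less RNA per cell cannot be told apart.

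Values were deposited as FPKM, a level corrected for transcript length and for the size of a library, and the sequencing depth is unknown. The libraries held the markers of brain tissue. The 5 neuronal, 4 astrocyte, 4 oligodendrocyte and 4 microglial markers all had means of at least 6.31 FPKM over the 6 libraries, and the highest value of Ckm, Acta1, Krt5, Krt14 and Alb, markers of muscle, skin and liver, was 3.50 FPKM. The pituitary markers Gh and Prl were uneven, with sums of 6.51, 0 and 2.15 FPKM in saline and 4.51, 20.4 and 9.39 FPKM after soman. Gh overlapped between the groups and did not pass the test (limma adjusted p = 0.206). Whether dissections differed between libraries was not tested. Genes above 0 numbered 25731 to 26001 in the saline libraries and 28509, 28810 and 26442 in the 1/5 LD50 day 7 libraries. Mitochondrial transcripts took 6.60% to 11.0% of the summed FPKM in saline and 9.47% to 10.9% in the soman group. Saline replicate 3 lay between the other saline libraries for genes that separate them, so the counts of genes called against saline were also made without it. Of the soman groups set beside this one, replicates 2 and 3 of 1/10 LD50 at day 7 had mitochondrial shares of 21.7% and 25.9%. Almost no cerebellar transcripts were found in the first replicate of the 1/2 LD50 group (day 7) and in replicate 2 of the day 3 group.

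Against saline, 954 genes rose and 1304 fell at day 7 of 1/5 LD50, of 14701 genes tested. These are 6.49% and 8.87% of the tested genes and 15.4% together (limma on log2(FPKM + 1), Benjamini-Hochberg adjusted p under 0.05). The fallen genes included the extracellular matrix and transporter genes of the meninges, many voltage-gated channels and receptors, and the largest scaffold and chromatin proteins. The risen genes included many of the ribosome, the respiratory chain, the proteasome and the splicing machinery. The median log2 difference of all tested genes was 0.03, and the 2 groups did not overlap for 21.7% of the genes with the soman libraries above and for 18.8% with them below. Without replicate 3 of the soman group the counts were 332 and 798, and without saline replicate 3 they were 443 and 802. Without saline replicate 2, 574 genes rose.

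**Figure D1:**
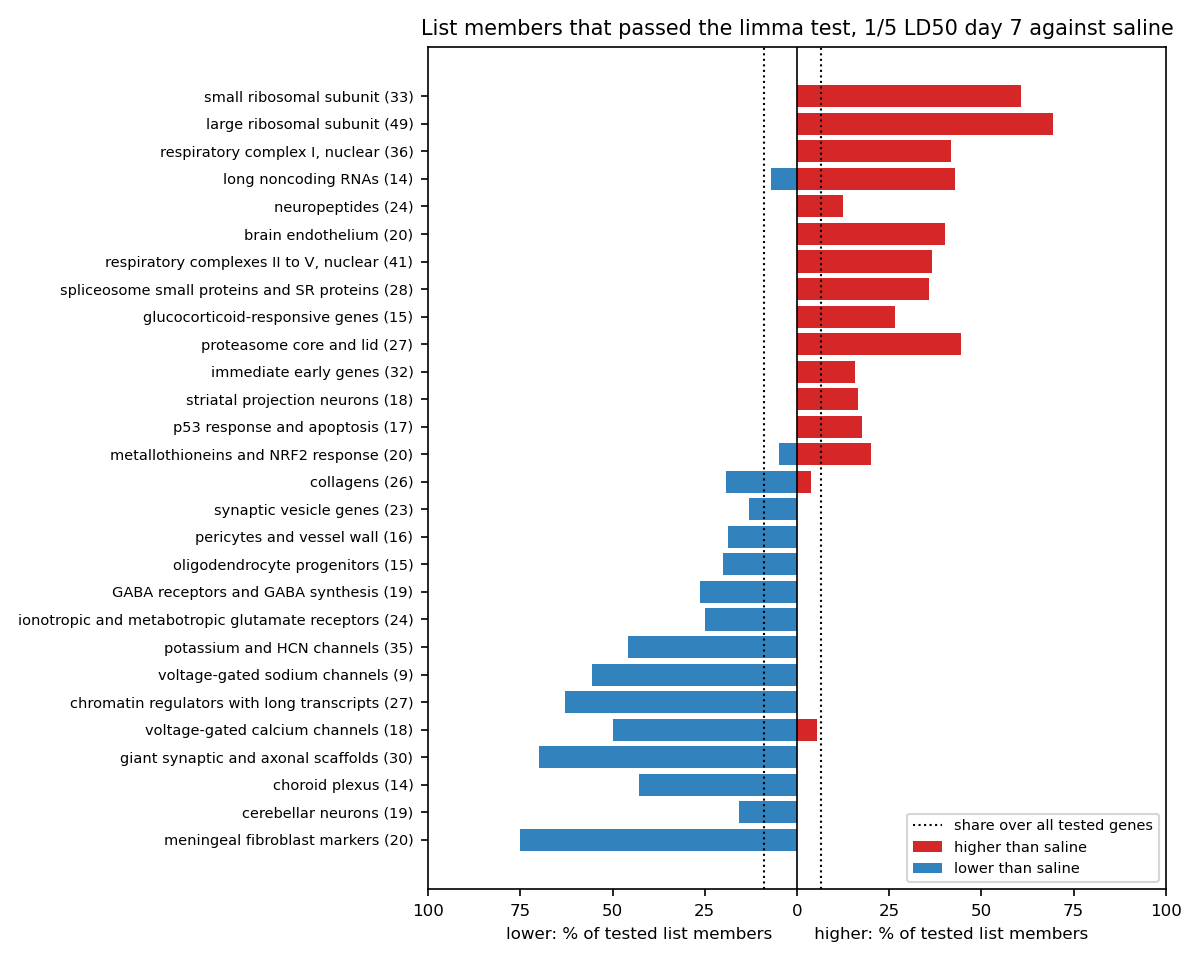
Share of the tested members of each gene list that passed the limma test against saline at day 7 of 1/5 LD50, for the lists with at least 8 tested members and at least 3 called. Bars to the right are members higher than saline and bars to the left members lower, the number of tested members is in brackets, and the dotted lines mark the shares over all tested genes, 6.49% higher and 8.87% lower. The meningeal, scaffold and chromatin lists reach furthest to the left and the ribosomal lists furthest to the right.

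Transcript length went with the direction of change. The longest known transcript had a median of 6729 bases for the fallen genes, 1770.5 for the risen genes and 3279 for all tested genes. Tested genes were split by length into 10 groups of equal size. In the group with the shortest transcripts 16.2% rose and 0.50% fell, and in that with the longest transcripts 0.57% rose and 45.0% fell. The median log2 difference from the saline mean in the longest group minus that in the shortest was -0.44, -0.40 and -0.55 in the 3 soman libraries. It was -0.01, -0.02 and 0.02 in the saline libraries, and all 3 soman libraries lay below them. The trend was not particular to this group. The same value was -0.43, -0.26 and -0.26 at 1/2 LD50 of day 7 and -0.41, -0.41 and -0.23 at 1/5 LD50 of day 3. At 1/10 LD50 of day 7 it was -0.23, -0.11 and 0.04. With each library's trend on length removed, 435 genes rose and 498 fell of 14119 with a length. Counts with the trend removed are given below for many of the lists. They are not given for some, such as the collagen, choroid plexus, synaptic vesicle, pericyte and cerebellar lists. The part of length in each result was not tested further.

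**Figure D2:**
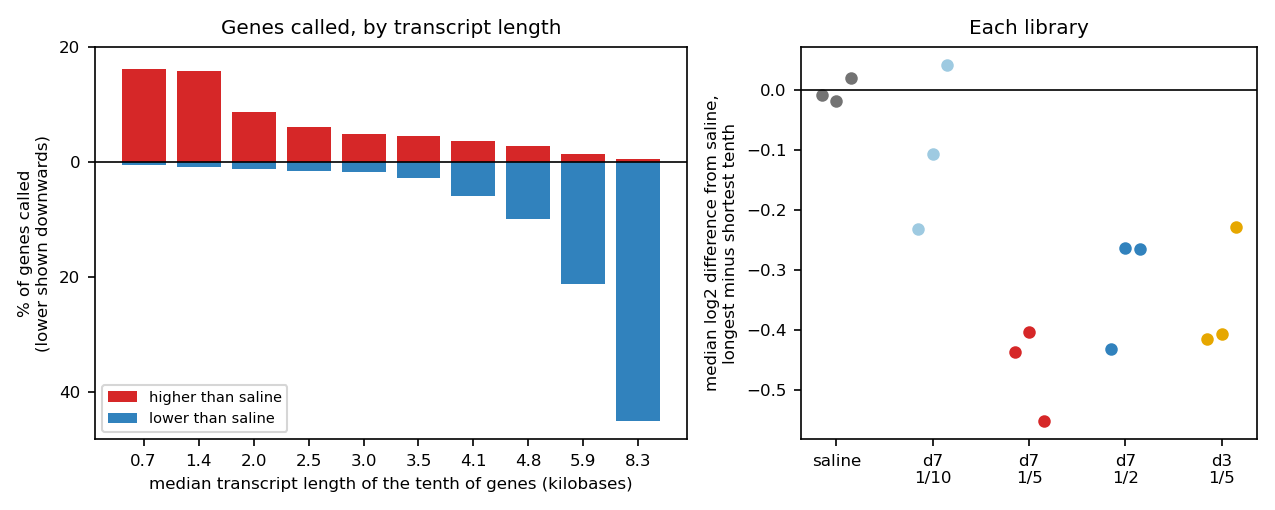
Left, the percentage of tested genes called higher (upward bars) or lower (downward bars) than saline at day 7 of 1/5 LD50 in 10 equal groups of genes ordered by transcript length, whose median is on the horizontal axis in kilobases. Right, the median log2 difference from the saline mean in the longest group minus that in the shortest, 1 point a library. Calls pass from mostly higher, 16.2% in the shortest group, to mostly lower, 45.0% in the longest, and the 1/5 LD50 day 7 libraries lie between -0.55 and -0.40. The libraries of 1/2 LD50 at day 7 and of 1/5 LD50 at day 3 lie between -0.43 and -0.23.

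No change in the RNA of the direct target of soman passed the test. Ache, which encodes acetylcholinesterase, stood at 34.9, 31.5 and 30.2 FPKM in the saline libraries and at 32.2, 38.6 and 33.1 FPKM in the soman libraries. The groups overlapped, and the log2 difference was 0.10 ± 0.13 (SE, limma adjusted p = 0.658). Bche, the related butyrylcholinesterase, stood at 1.04, 0.807 and 0.926 FPKM in saline and 1.30, 1.50 and 1.06 FPKM after soman. Its soman libraries were all higher, but the difference did not pass the test (0.25 ± 0.13, adjusted p = 0.186). Chat, the enzyme that makes acetylcholine, had 1.86 ± 0.303 FPKM in saline and 1.68 ± 0.0271 FPKM after soman (SD, n = 3), with overlapping groups and a limma adjusted p of 0.746.

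Among 15 tested genes of cholinergic signalling, 2 fell and none rose, with a median log2 difference of 0.00. Over all tested genes 8.87% fell. Both fallen cholinergic genes are nicotinic receptor subunits. Chrna7, the alpha7 subunit, was at 6.15, 6.87 and 6.06 FPKM in saline and at 3.96, 3.74 and 3.87 FPKM after soman. The groups were far apart, and the fall of 0.60 on the log2 scale (SE 0.10, limma adjusted p = 0.000222) was also called with the length trend removed (adjusted p = 0.000262). Chrnb2, the beta2 subunit, was at 10.8, 10.9 and 10.4 FPKM in saline and at 8.86, 8.46 and 8.53 FPKM after soman. This smaller fall (log2 -0.29 ± 0.09, limma adjusted p = 0.0248) lost the call without replicate 2 or 3 of the soman group or without any 1 saline library (adjusted p up to 0.0809), and with the length trend removed (adjusted p = 0.272). While 8.87% of all tested genes fell, 2 of 18 other serine hydrolases, enzymes of the class that organophosphates bind, fell and none rose. They were Prep, a prolyl endopeptidase, at 5.64 ± 0.420 FPKM in saline and 4.59 ± 0.0783 FPKM after soman (SD, n = 3), and Fasn, fatty acid synthase, at 50.5 ± 1.40 and 38.5 ± 3.14 FPKM. Both have long transcripts, and neither was called with the length trend removed (limma adjusted p = 0.773 and 0.431).

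**Figure D3:**
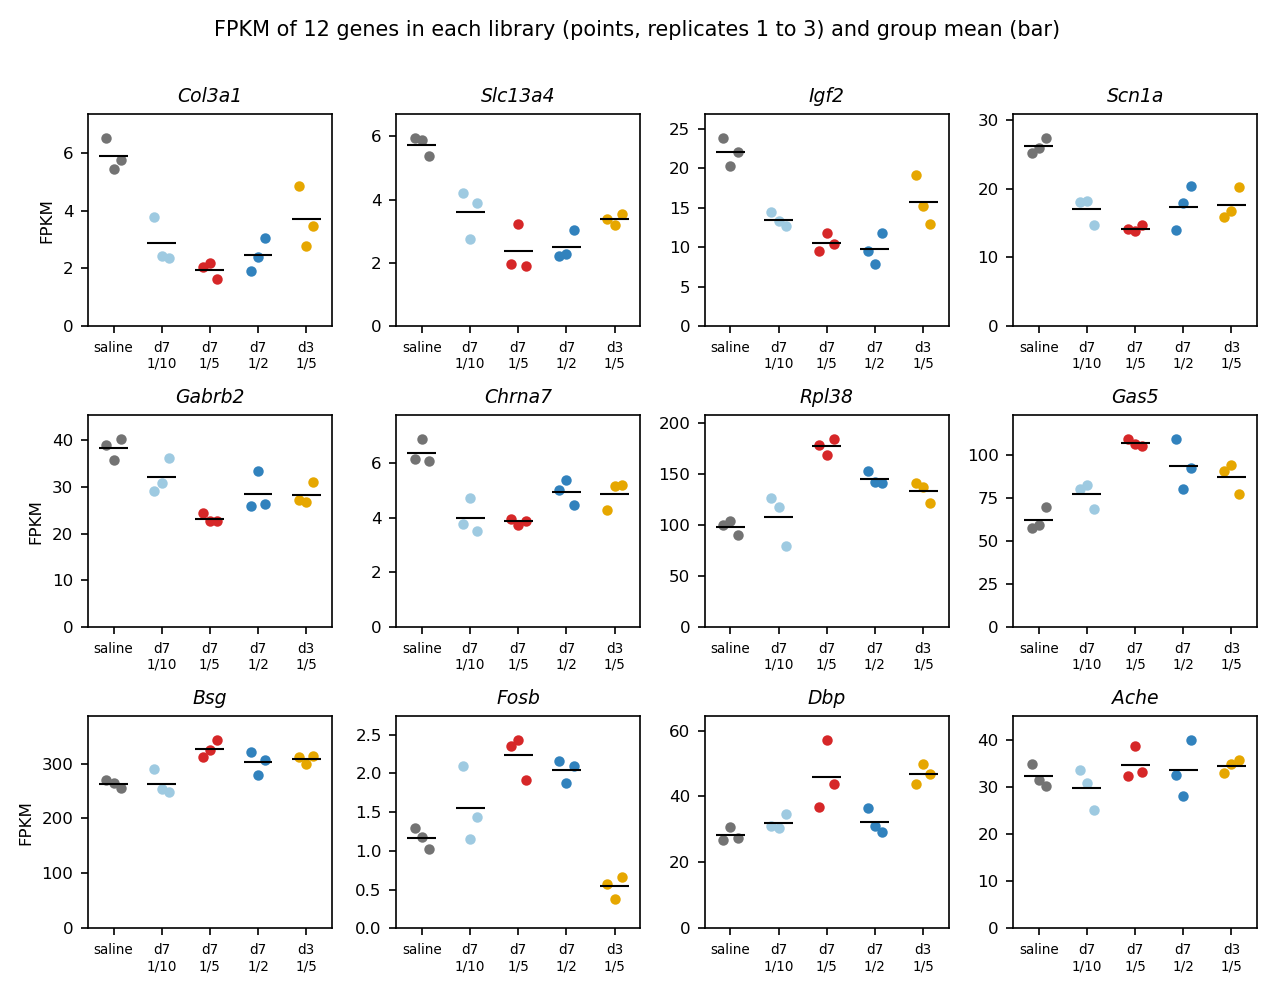
FPKM (vertical axes) of 12 genes in each library (points, replicates 1 to 3 from left to right) and the group mean (bars), for saline, the 3 doses at day 7 (d7) and 1/5 LD50 at day 3 (d3). In the 1/5 LD50 day 7 libraries, Col3a1 lies between 1.65 and 2.19 against 5.44 to 6.52 in saline, Rpl38 lies between 169 and 185 against 90.5 to 104, and Ache overlaps with saline.

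Markers of meningeal fibroblasts, the cells that make the collagen-rich membranes around the brain, had the largest share of fallen members of the lists drawn in the plot of lists. Of 20 tested members 15 fell and none rose, with a median log2 difference of -0.72. Col3a1, a fibrillar collagen, stood at 6.52, 5.44 and 5.75 FPKM in the saline libraries. It stood at 2.04, 2.19 and 1.65 FPKM in the soman libraries, and the fall of 1.22 on the log2 scale had a standard error of 0.13 (limma adjusted p = 1.03e-06). Col1a2, the second chain of type I collagen, fell from 12.2, 10.6 and 11.3 FPKM to 3.57, 5.91 and 4.67 FPKM (log2 -1.13 ± 0.14, limma adjusted p = 4.14e-06). No library of either group came near the other group for these genes. Slc13a4, a sulfate transporter of the meninges, stood at 5.96, 5.90 and 5.37 FPKM in saline and 1.97, 3.22 and 1.90 FPKM after soman (log2 -1.02 ± 0.12, limma adjusted p = 1.89e-06). Igf2, a growth factor that the meninges and choroid plexus secrete in the adult brain, stood at 23.8, 20.2 and 22.0 FPKM in saline and 9.48, 11.8 and 10.3 FPKM after soman, a fall of 1.0 on the log2 scale (SE 0.13, limma adjusted p = 6.36e-06).

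Replicate 2 of the soman group was the highest of its group for Col1a2, Slc13a4 and Igf2, and was still below every saline library. Col1a1 and the transporter Slc47a1 fell by 0.85 and 0.81 on the log2 scale. The proteoglycan Dcn fell by 0.53 (limma adjusted p = 0.00401), a call lost without replicate 3 of the soman group (adjusted p = 0.0642). The list's summed level was 155.6 to 178.7 FPKM in saline and 94.8 to 123 FPKM after soman. Between 12 and 15 members fell with each of the 6 libraries left out in turn, and 17 fell with the length trend removed. Collagens as a family did not move together, with 5 of 26 tested members lower, 1 higher and a median of -0.03. The share of all tested genes that fell was 8.87%. The risen member was Col24a1, at 0.989, 1.36 and 1.07 FPKM in saline and 1.65, 1.90 and 1.60 FPKM after soman (log2 0.35 ± 0.09, limma adjusted p = 0.0073).

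A macrophage gene of the same borders was lower as well. Mrc1, the mannose receptor that marks macrophages of the meninges and vessel walls, was at 1.73, 1.73 and 1.58 FPKM in saline and 0.364, 0.405 and 0.464 FPKM after soman. All values are low, but the groups were far apart (log2 -0.93 ± 0.10, limma adjusted p = 8.44e-07), and on the scale used the change of a gene near 1 FPKM is understated. F13a1, coagulation factor XIII A, which such macrophages also make, fell by 0.33 (limma adjusted p = 0.018), and lost the call without soman replicate 1 or 3 or saline replicate 1 (adjusted p up to 0.109). These 2 genes, like Col24a1, Bche and Chat, are below the mean of 2 FPKM required of other named genes. They were the 2 fallen of 5 tested leukocyte genes. Mrc1 was called with the length trend removed (limma adjusted p = 2.3e-06).

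Choroid plexus genes fell in part, and unevenly between libraries. Of 14 tested members 6 fell, with a median log2 difference of -0.48. Folr1, a folate receptor, was at 4.33, 2.90 and 3.30 FPKM in saline and 0.695, 1.95 and 1.17 FPKM after soman (log2 -1.01 ± 0.27, limma adjusted p = 0.00966). Kl, the klotho gene, was at 4.64, 2.28 and 2.97 FPKM in saline and 0.819, 2.14 and 1.61 FPKM after soman (log2 -0.77 ± 0.21, limma adjusted p = 0.0126). Ttr, the thyroxine carrier that is by far the most abundant of the 3, was at 518, 377 and 403 FPKM in saline and 202, 492 and 451 FPKM after soman. Soman replicate 1 was low and saline replicate 1 high for all 3 genes. The Ttr groups overlapped and the difference did not pass the test (log2 -0.27 ± 0.33, limma adjusted p = 0.617). The list count was 2 without soman replicate 1, 10 without soman replicate 2 and 0 without saline replicate 1, and Folr1 and Kl each lost the call without soman replicate 1 or saline replicate 1 (adjusted p up to 0.0633 and 0.105). Kl was not called with the length trend removed (adjusted p = 0.0519).

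Ion channels, which set the excitability of neurons, fell in part in each ion class. The lists counted are not of voltage-gated channels alone and hold, for example, the leak channel Nalcn. Of 9 sodium channel genes 5 fell, of 18 calcium channel genes 9 fell and 1 rose, and of 35 potassium and HCN channel genes 16 fell. The median log2 differences were -0.30, -0.32 and -0.22. Scn1a, a sodium channel prominent in inhibitory interneurons, stood at 25.2, 25.9 and 27.4 FPKM in saline and 14.1, 13.8 and 14.6 FPKM after soman (log2 -0.84 ± 0.10, limma adjusted p = 3.25e-06). Scn2a, the main sodium channel of excitatory axons early in life, stood at 37.2, 40.6 and 41.7 FPKM in saline and 25.8, 22.2 and 23.7 FPKM after soman (log2 -0.71 ± 0.09, limma adjusted p = 5.1e-06). The libraries of both groups were tight, with no overlap. Nalcn, a sodium leak channel, fell by 0.51 and Kcna2, an axonal potassium channel, by 0.62 on the log2 scale. Cacna1c, an L-type calcium channel, fell by 0.36, while Cacnb3, a short auxiliary subunit, rose by 0.35 (limma adjusted p = 0.0458) and lost that call without any library but saline replicate 2 (adjusted p up to 0.201) and with the length trend removed (adjusted p = 0.148).

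Channel transcripts are long, with medians of 7122, 7681 and 5407 bases in the 3 lists. With the length trend removed, 4 sodium, 2 calcium and 5 potassium and HCN channel genes fell, among them Scn1a, Scn2a, Nalcn and Kcna2 (limma adjusted p = 4.93e-05, 0.000374, 0.00764 and 0.0111; log2 -0.62, -0.48, -0.34 and -0.32) but not Cacna1c (adjusted p = 0.811). Without soman replicate 3 the counts were 5, 5 and 6, and for potassium and HCN channels they were 10, 8 and 8 without saline replicates 1, 2 and 3.

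Receptors for the main transmitters followed in smaller numbers. Of 24 glutamate receptor genes 6 fell, and of 19 genes of GABA receptors and GABA synthesis 5 fell, with medians of -0.20 and -0.15 and none risen. The share of all tested genes that fell was 8.87%. Gabrb2, a subunit of the most common GABA-A receptor, stood at 38.9, 35.7 and 40.2 FPKM in saline and 24.4, 22.6 and 22.7 FPKM after soman (log2 -0.70 ± 0.10, limma adjusted p = 1.71e-05). It was lower in every soman library than in any saline library, and was called with the length trend removed (adjusted p = 0.000173). Frrs1l, an AMPA receptor assembly factor, stood at 39.4, 40.5 and 40.2 FPKM in saline and 22.2, 17.9 and 17.5 FPKM after soman (log2 -1.03 ± 0.14, limma adjusted p = 7.58e-06).

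Grin3a, an NMDA receptor subunit, fell by 0.36 on the log2 scale (limma adjusted p = 0.00193), and was not called with the length trend removed (log2 -0.17, adjusted p = 0.145). The glutamate count was 3 without soman replicate 2, saline replicate 1 or saline replicate 3, and 2 with the length trend removed. The GABA count was 3 without soman replicate 1 or saline replicate 3, 2 without soman replicate 3 and 3 with the trend removed. Glra1, a glycine receptor subunit of the brainstem and spinal cord, had the largest fall of the named genes. It stood at 7.95, 6.23 and 6.93 FPKM in saline and 0.683, 1.26 and 0.710 FPKM after soman (log2 -2.10 ± 0.48, limma adjusted p = 0.00356). Among 15 other genes of the thalamus, hypothalamus and brainstem none was called. Of 23 synaptic vesicle genes 3 fell and none rose, while 8.87% of all tested genes fell. Nsf, an ATPase of the fusion machinery, fell by 0.28 on the log2 scale and was called with the length trend removed (limma adjusted p = 0.00433).

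Genes for very large proteins fell in large part. Of 30 giant synaptic and axonal scaffolds and motors 21 fell, with a median of -0.39, and of 27 chromatin regulators with long transcripts 17 fell, with a median of -0.30, and none of either list rose. Kif1b, an axonal transport motor, stood at 101, 101 and 105 FPKM in saline and 65.1, 70.6 and 67.2 FPKM after soman (log2 -0.59 ± 0.07, limma adjusted p = 2.77e-06). Cntnap2, an adhesion protein beside the node of Ranvier, stood at 17.3, 18.2 and 17.4 FPKM in saline and 11.6, 12.1 and 11.2 FPKM after soman (log2 -0.56 ± 0.07, limma adjusted p = 3.25e-06). Myo5a, a cargo motor, fell by 0.56, the histone methyltransferase Ash1l by 0.51 and the histone acetyltransferase Ep300 by 0.59 on the log2 scale. The groups were apart for each of these genes. Median transcript lengths were 10244 and 10216 bases, and with the length trend removed 6 scaffolds and 3 chromatin regulators fell. Kif1b, Cntnap2, Myo5a, Ash1l and Ep300 were called there (limma adjusted p = 0.000317, 0.00299, 0.00251, 0.0054 and 0.00294) with smaller log2 differences of -0.32, -0.31, -0.26, -0.22 and -0.34, and the ubiquitin ligase Huwe1 and the methyltransferase Kmt2c were not (adjusted p = 0.602 and 0.284).

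Some of the smallest p-values belonged to other long transcripts. Lnpep, the insulin-regulated aminopeptidase, was at 14.6, 13.3 and 15.7 FPKM in saline and 5.06, 5.70 and 4.38 FPKM after soman (log2 -1.37 ± 0.14, limma adjusted p = 8.44e-07). Megf9, a transmembrane protein of neurons and glia, was at 19.9 ± 0.874 FPKM in saline and 10.2 ± 0.783 FPKM after soman (SD, n = 3), and differed by -0.90 ± 0.09 on the log2 scale (limma adjusted p = 8.44e-07). For both genes the highest soman library was far below the lowest saline library. Arfgef3, Atp8a2, Ksr2, Xylt1, Usp9x and Ralgapa1 fell by 1.10, 1.07, 0.97, 0.81, 0.72 and 0.50 on the log2 scale. All 8 of these genes were called without each of the 6 libraries in turn and with the length trend removed (limma adjusted p of at most 0.000864). The trend's removal left log2 differences of -0.64 for Ksr2, -0.42 for Usp9x and -0.27 for Ralgapa1.

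Ribosomal protein genes had the largest shares of risen members of the lists drawn in that plot. Of 49 genes of the large subunit 34 rose, of 33 of the small subunit 20 rose, and none fell, with medians of 0.47 and 0.57. Rpl38 stood at 100.2, 104 and 90.5 FPKM in saline and 179, 169 and 185 FPKM after soman (log2 0.85 ± 0.13, limma adjusted p = 5.51e-05). Rpl24 stood at 163, 154 and 161 FPKM in saline and 215, 223 and 239 FPKM after soman (log2 0.50 ± 0.07, limma adjusted p = 7.53e-06), and Rps15 at 277, 274 and 246 and 378, 409 and 409 FPKM (log2 0.58 ± 0.10, limma adjusted p = 0.000271). Every soman library exceeded every saline library for these genes. Rpl41 rose from 187, 89.7 and 100.5 FPKM to 283, 276 and 303 FPKM (log2 1.26 ± 0.32, limma adjusted p = 0.00689), with saline replicate 1 well above the other saline libraries.

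Many ribosomal protein genes have near-identical processed pseudogenes, so that their levels are uncertain where reads could be split between copies. The summed level of the large subunit genes was 5619.6 to 6001 FPKM in saline and 7824 to 8568 FPKM after soman. With the length trend removed 14 large and 12 small subunit genes rose, among them Rpl38, Rpl24 and Rps15 (limma adjusted p = 0.000937, 0.00259 and 0.00681). Their log2 differences were then 0.58, 0.25 and 0.32. Without soman replicate 3 the counts were 23 and 13. Gas5, a noncoding RNA whose gene hosts small nucleolar RNAs and belongs to the same terminal oligopyrimidine class as ribosomal protein genes, rose from 57.6, 59.3 and 69.4 FPKM to 109, 106 and 105 FPKM (log2 0.78 ± 0.12, limma adjusted p = 8.76e-05). It was 1 of 6 risen among 14 long noncoding RNAs, a count of 2 without soman replicate 3 and of 8 with the length trend removed, and Peg13 was the only 1 that fell (log2 -0.30 ± 0.07, limma adjusted p = 0.00441).

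Nuclear genes of the respiratory chain rose without their mitochondrial partners passing the test. Of 36 complex I genes 15 rose, and of 41 genes of complexes II to V 15 rose, with none fallen and medians of 0.34 and 0.28. Ndufa6, a complex I subunit, stood at 83.8, 89.6 and 85.2 FPKM in saline and 113, 118 and 122 FPKM after soman (log2 0.44 ± 0.08, limma adjusted p = 0.000442). Cox6a1, a cytochrome oxidase subunit, stood at 358, 360.4 and 327 FPKM in saline and 433, 468 and 492 FPKM after soman (log2 0.41 ± 0.10, limma adjusted p = 0.00341). Of the 13 messenger RNAs of the mitochondrial genome none was called, with a median of 0.42. COX1, the most abundant of them, stood at 7764, 4544 and 5598 FPKM in saline and 6621, 8687 and 7711 FPKM after soman. Saline replicate 1 lay inside the range of the soman libraries, and the limma adjusted p was 0.206. The nuclear counts were 8 and 5 without soman replicate 3, 7 and 6 without saline replicate 3, and 4 and 2 with the length trend removed. In that setting Cox6a1 lost its call (adjusted p = 0.31, log2 0.16) and Ndufa6 was at 0.24 (adjusted p = 0.0325). Median transcript lengths of the 2 nuclear lists were 1025.5 and 1232 bases.

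Proteasome and splicing genes, whose transcripts are also short, rose in part. Of 27 proteasome genes 12 rose, with a median of 0.19, and of 28 genes of small spliceosomal and SR proteins 10 rose, with a median of 0.24. Psmc4, an ATPase of the proteasome cap, rose from 49.8 ± 0.825 to 59.9 ± 1.28 FPKM and Snrpf, a core splicing protein, from 10.6 ± 0.909 to 16.1 ± 1.78 FPKM (SD, n = 3). Their limma adjusted p-values were 0.00234 and 0.000723, and the groups did not overlap. The list counts were 2 and 3 without soman replicate 3, 5 and 5 without saline replicate 1, 5 and 5 without saline replicate 3, and 2 and 4 with the length trend removed. In that last setting Psmc4 was not called (log2 0.13, adjusted p = 0.104), and Snrpf was at 0.32 (adjusted p = 0.043). The counts were also 7 proteasome genes without saline replicate 2 and 5 splicing genes without soman replicate 1.

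Vessel lining genes were higher in part. Of 20 markers of brain endothelium 8 rose and none fell, with a median of 0.29. Bsg, a glycoprotein of the blood-brain barrier also known as basigin, stood at 269.6, 264 and 255 FPKM in saline and 312, 326 and 343 FPKM after soman (log2 0.31 ± 0.06, limma adjusted p = 0.00116). Slc2a1, the glucose transporter of the barrier, stood at 32.8, 30.2 and 30.8 FPKM in saline and 36.0, 46.8 and 52.3 FPKM after soman (log2 0.50 ± 0.13, limma adjusted p = 0.00723). Soman replicate 3 was the highest for both genes, and Slc2a1 lost the call without it (adjusted p = 0.0779). The list's summed level was 456 to 470.4 FPKM in saline and 543 to 632 FPKM after soman, and Bsg alone made up most of it. The endothelial markers Cldn5, Flt1 and Pecam1 summed to 31.3 to 34.1 FPKM in saline and 39.6 to 40.7 FPKM after soman. The list's count was 2, 3, 3 and 5 without soman replicate 2, soman replicate 3, saline replicate 3 and saline replicate 1. It was 4 with the length trend removed, where Bsg was at 0.15 (adjusted p = 0.0426). Of 16 pericyte and vessel wall genes 3 fell and none rose, with a median of -0.07, while 8.87% of all tested genes fell.

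Lists of glia and inflammation had at most 3 called members each, and over all tested genes 6.49% rose and 8.87% fell. Of 15 oligodendrocyte progenitor genes 3 fell and none rose, with a median of -0.11. That count was 1 without soman replicate 3, saline replicate 1 or saline replicate 3, and 0 with the length trend removed. None of 20 genes of myelin and mature oligodendrocytes, with Mbp at 1413 ± 44.0 FPKM in saline and 1735 ± 98.7 FPKM after soman (SD, n = 3, limma adjusted p = 0.309), was called. Of 18 astrocyte genes Slc4a4, a bicarbonate transporter, and Slc1a2, the main glutamate transporter, fell by 0.55 and 0.27 on the log2 scale (limma adjusted p = 0.00714 and 0.0392). Of 13 reactive astrocyte genes Cp, ceruloplasmin, fell, a call lost without soman replicate 1, soman replicate 3 or saline replicate 1 and with the length trend removed. Neither transporter was called with the length trend removed (adjusted p = 0.0927 and 0.901), and Slc1a2 lost the call without soman replicate 1 or 3 or saline replicate 1 or 3 (adjusted p up to 0.167). Of 20 microglial genes Aif1, a calcium-binding protein, and the purine receptor P2ry13 rose by 0.54 and 0.31 (limma adjusted p = 0.015 and 0.0449), and P2ry13 lost the call without any 1 of the 6 libraries and Aif1 without soman replicate 2 or saline replicate 3 (adjusted p up to 0.188 and 0.0667). With the length trend removed neither was called (adjusted p = 0.224 and 0.192). None of 20 interferon-stimulated genes was called, with a median of -0.28. Of 9 tested cytokine and chemokine genes 2 rose (Nfkbia and Cxcl14) and none fell, with a median of 0.25.

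Immediate early genes rose in small numbers. Of 32 immediate early genes, which neurons switch on within minutes of firing, 5 rose and none fell, with a median of 0.18. The share of all tested genes that rose was 6.49%. Fosb stood at 1.30, 1.18 and 1.02 FPKM in saline and 2.36, 2.43 and 1.91 FPKM after soman (log2 0.58 ± 0.12, limma adjusted p = 0.00175). Egr2 stood at 3.65, 3.42 and 3.92 FPKM in saline and 4.92, 5.06 and 5.20 FPKM after soman (log2 0.38 ± 0.10, limma adjusted p = 0.00732). The groups were apart for both. Egr3, Klf2 and Junb rose by 0.62, 0.69 and 0.53 (limma adjusted p = 0.0234, 0.00952 and 0.0454), and each lost the call without 2 or more of the 6 libraries (adjusted p up to 0.0923, 0.0809 and 0.127). Klf2 and Junb also lost it with the length trend removed (adjusted p = 0.0577 and 0.176). Arc and Fos, the best-known members, were at 52.9 ± 9.34 and 12.0 ± 1.34 FPKM against 39.9 ± 2.85 and 11.4 ± 1.14 FPKM in saline (SD, n = 3) and did not pass the test (limma adjusted p = 0.248 and 0.875). The list count was 3 without soman replicate 1, soman replicate 2, saline replicate 2 or saline replicate 3, 2 without soman replicate 3, and 3 with the length trend removed.

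Stress lists held both risen and fallen genes, except that of the p53 response and apoptosis, in which none fell. Over all tested genes 6.49% rose and 8.87% fell. Of 20 metallothionein and NRF2 response genes 4 rose and 1 fell, of 20 cytosolic heat shock genes 1 rose and 1 fell, and of 17 genes of the p53 response and apoptosis 3 rose, with medians of 0.08, 0.05 and 0.08. Without soman replicate 3 none of the first list was called, 1 heat shock gene fell and 1 p53 gene rose. With the length trend removed 1 gene of the first list and 1 p53 gene rose, and no heat shock gene was called. Without soman replicate 2 the risen counts of the 3 lists were 2, 0 and 1. The heat shock rise was also lost without saline replicate 2 or 3, and the p53 count was 1 without saline replicate 1 or 3. The metallothioneins Mt1 and Mt2, which bind zinc and respond to glucocorticoids, rose from 125 ± 3.22 to 178 ± 26.0 FPKM and from 61.0 ± 1.68 to 93.4 ± 13.2 FPKM (SD, n = 3, limma adjusted p = 0.00492 and 0.00549). Soman replicate 3 was the highest for both, and without it they lost the call (adjusted p = 0.0607 and 0.0566), as they did with the length trend removed (adjusted p = 0.197 and 0.164). Gadd45b, a stress and activity gene, rose by 0.49 on the log2 scale (limma adjusted p = 0.00281), or by 0.31 with the length trend removed. Rbm3, a cold-inducible RNA-binding protein, stood at 17.7, 22.6 and 23.6 FPKM in saline and 28.8, 37.7 and 33.9 FPKM after soman (log2 0.63 ± 0.14, limma adjusted p = 0.00299). Its relative Cirbp had a log2 difference of 0.36 ± 0.14 and did not pass (limma adjusted p = 0.0729). Of 18 clock genes Dbp, an output gene of the clock, rose and Clock fell. Dbp stood at 26.7, 30.6 and 27.3 FPKM in saline and 36.8, 57.1 and 43.7 FPKM after soman (log2 0.66 ± 0.13, limma adjusted p = 0.000863), and the time of day at which brains were taken is not given. Clock, which has a long transcript, fell by 0.42 (limma adjusted p = 0.000214) and was not called with the length trend removed (adjusted p = 0.125).

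Cerebellar transcripts were uneven among the soman libraries. Of 19 genes of cerebellar neurons 3 fell and none rose, with a median of -0.59, and 11 fell in a model of the 6 libraries alone. In the model of all libraries 8.87% of all tested genes fell. The summed level of Gabra6, Cbln3, Pcp2 and Fat2 was 220.0, 189.7 and 191 FPKM in saline and 145, 78.6 and 174 FPKM after soman. Gabra6, a GABA-A receptor subunit of cerebellar granule cells, stood at 69.1, 53.7 and 60.8 FPKM in saline and 37.2, 18.5 and 39.7 FPKM after soman. Soman replicate 2 was the lowest, and the groups did not overlap. The limma adjusted p was 0.572 (log2 -0.99 ± 1.09), with the spread taken over all 39 libraries, 3 of which lack cerebellar transcripts. Without those 3 libraries, a setting chosen after seeing the data, 10 of the 19 genes fell.

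Itpr1, the calcium release channel that is very abundant in Purkinje cells, stood at 166, 144 and 155 FPKM in saline and 77.0, 65.9 and 86.7 FPKM after soman (log2 -1.01 ± 0.21, limma adjusted p = 0.0014). Rora, a nuclear receptor of the same cells, fell by 0.74 and the Purkinje cell scaffold Grid2ip by 1.05 (limma adjusted p = 0.000249 and 0.00142). With the length trend removed Rora was at -0.46 (adjusted p = 0.0117). Pcp2, another Purkinje cell gene with a short transcript, overlapped between the groups, at 89.9, 83.9 and 78.2 FPKM in saline and 79.4, 45.5 and 113 FPKM after soman. The summed cerebellar level moves with these genes, and its part in them was not tested.

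**Figure D4:**
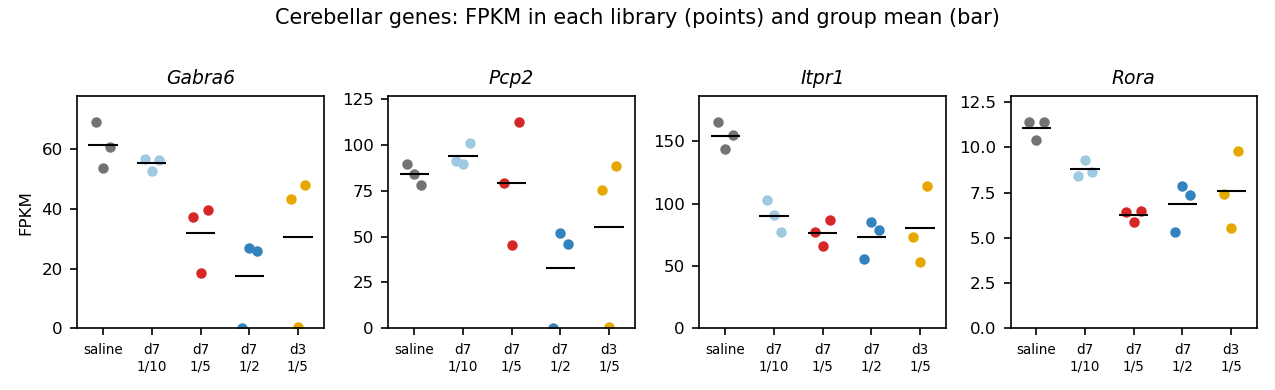
FPKM (vertical axes) of 4 cerebellar genes in each library (points, replicates 1 to 3 from left to right) and the group mean (bars), for saline, the 3 doses at day 7 (d7) and 1/5 LD50 at day 3 (d3). The 1/5 LD50 day 7 libraries lie below saline for Gabra6, Itpr1 and Rora and overlap with it for Pcp2, and 1 library each of 1/2 LD50 at day 7 and 1/5 LD50 at day 3 is close to 0 for Gabra6 and Pcp2.

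Set directly against the other doses at day 7, the 1/5 LD50 group had few genes that passed the test against 1/2 LD50. They were 15 higher and 2 lower genes (0.102% and 0.0136% of 14701 tested genes). The groups did not overlap for 12.0% of the genes with 1/5 LD50 above and for 5.50% with it below. At an unadjusted p under 0.05 there were 1354 genes. Of the 15 genes 9 belong to the endoplasmic reticulum (ER) chaperone and unfolded protein response list, of which 21 members were tested. The list had a median log2 difference of 0.37 against 0.03 for all tested genes. Chaperones of the ER fold secreted and membrane proteins, and cells raise them together through the sensors ATF6, IRE1 and PERK when unfolded protein builds up. Against saline, the same list had 1 member higher (Atf4) and 1 lower (Atf6), each a call lost without 2 or more of the 6 libraries, and a median of 0.04.

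Many of these chaperone genes carry an ER stress element in their promoter, which ATF6 and XBP1 bind together with the factor NF-Y. The element, read as CCAAT, 9 bases of any kind and CCACG, was searched on both strands from 250 bases before to 50 bases after the start of each gene in RefSeq promoters (GRCm38.p6). It was found in 39 of 32851 windows (0.119%). Of the 21 tested list members 18 had a window and 7 of these held the element, and it was found in 4 of the 8 windows of the 9 members higher than at 1/2 LD50. These 4 are shown because they are genes of the group whose RNA differed between the doses. Each is printed on the gene's strand from a little upstream of the element to the base before the start, with the element in capitals. It begins 65, 162, 98 and 126 bases before the start of Hspa5, Calr, Pdia6 and Creld2, and in Calr and Creld2 it is on the opposite strand. The windows are chr2:34771985-34772089 (plus strand), chr8:84846932-84847133 (minus strand), chr12:17266451-17266588 (plus strand) and chr15:88819480-88819645 (plus strand).
Hspa5: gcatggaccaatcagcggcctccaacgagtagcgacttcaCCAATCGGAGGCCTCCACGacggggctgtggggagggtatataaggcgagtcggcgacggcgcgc
Calr: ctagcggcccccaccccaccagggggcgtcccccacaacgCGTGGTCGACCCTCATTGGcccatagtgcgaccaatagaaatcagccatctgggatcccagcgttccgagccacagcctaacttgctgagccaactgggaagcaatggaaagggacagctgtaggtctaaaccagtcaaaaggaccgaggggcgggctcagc
Pdia6: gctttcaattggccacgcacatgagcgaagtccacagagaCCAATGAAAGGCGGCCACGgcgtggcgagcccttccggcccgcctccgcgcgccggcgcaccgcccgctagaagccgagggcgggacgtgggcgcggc
Creld2: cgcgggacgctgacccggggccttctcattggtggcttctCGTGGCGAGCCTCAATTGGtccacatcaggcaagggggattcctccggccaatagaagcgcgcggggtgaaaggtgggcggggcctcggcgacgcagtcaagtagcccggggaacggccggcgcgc
A match of these letters describes the sequence and shows no binding.

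Hspa5 encodes BiP, the main chaperone of the ER. Its level was 185, 184 and 155 FPKM at 1/5 LD50, 103, 93.5 and 99.6 FPKM at 1/2 LD50 and 149, 136 and 99.3 FPKM at 1/10 LD50, all at day 7. At day 3 of 1/5 LD50 it was 90.1, 90.5 and 87.1 FPKM, and in saline 175, 168 and 181 FPKM. The 1/5 LD50 day 7 libraries were thus above every library of 1/2 LD50 at day 7 and of 1/5 LD50 at day 3, and overlapped with saline. The log2 difference from 1/2 LD50 was 0.82 ± 0.13 (limma adjusted p = 0.00133), and from saline -0.00 ± 0.13 (limma adjusted p = 0.993). Sdf2l1, a cofactor of BiP, was at 15.7, 13.6 and 13.1 FPKM at 1/5 LD50 and 5.85, 4.67 and 5.46 FPKM at 1/2 LD50 (log2 1.26 ± 0.21, limma adjusted p = 0.00254). Creld2, a protein disulfide isomerase of the ER, was at 19.7, 20.3 and 17.0 FPKM at 1/5 LD50 and 10.4, 9.15 and 10.5 FPKM at 1/2 LD50 (log2 0.86 ± 0.13, limma adjusted p = 0.000741). No library of one dose reached the range of the other.

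Pdia4, which forms disulfide bonds, Manf, a secreted neurotrophic ER protein, and Xbp1, the transcription factor activated by IRE1, were higher than at 1/2 LD50 by 0.77, 0.71 and 0.67 on the log2 scale (limma adjusted p = 0.000493, 0.000741 and 0.00254). Pdia6, the cochaperone Dnajb11 and the calcium-binding chaperone Calr were higher by 0.51, 0.44 and 0.31 (limma adjusted p = 0.0348, 0.0168 and 0.0335). Hspa5, Sdf2l1, Creld2, Pdia4 and Manf were called with each library of the 2 groups left out in turn. Xbp1 lost the call without 1/5 LD50 replicate 2 (adjusted p = 0.0599), and Pdia6, Dnajb11 and Calr lost it without 3 or more of these 6 libraries, so that 6 to 9 members were called. Calr lost it also with the length trend removed (adjusted p = 0.189). In a model of the 2 groups alone 3 members were called, and the adjusted p was 0.0257 for Sdf2l1, 0.0508 for Hspa5 and 0.0657 for Pdia4.

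**Figure D5:**
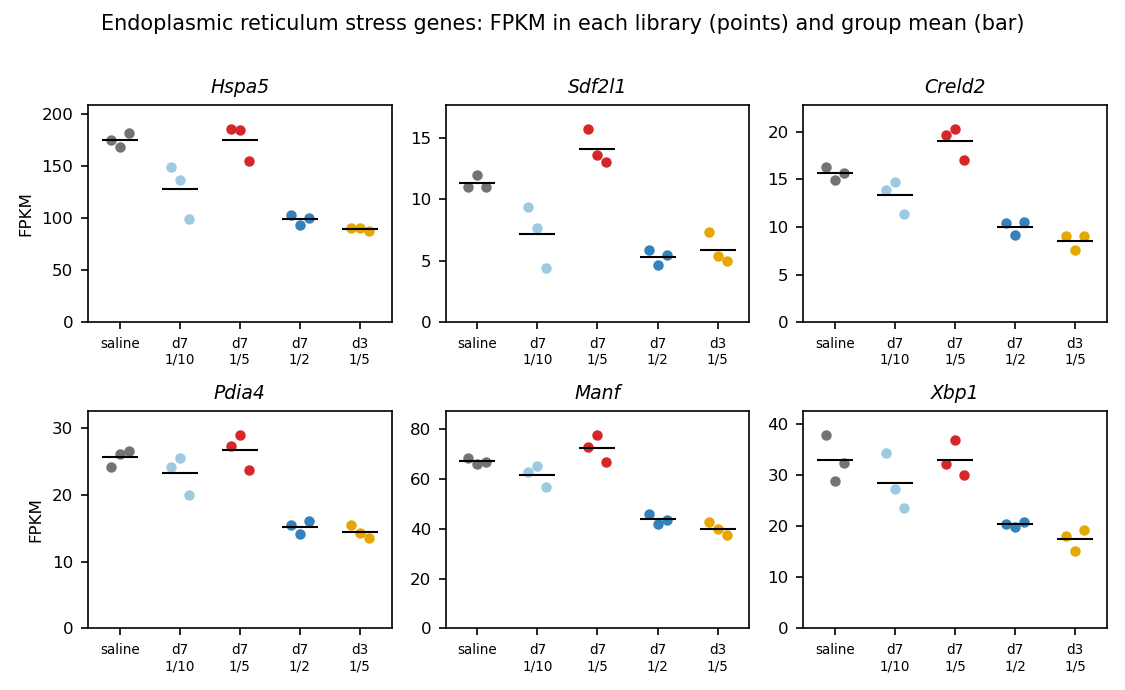
FPKM (vertical axes) of 6 genes of the ER chaperone and unfolded protein response list in each library (points, replicates 1 to 3 from left to right) and the group mean (bars), for saline, the 3 doses at day 7 (d7) and 1/5 LD50 at day 3 (d3). The 1/5 LD50 day 7 libraries lie near saline, at 155 to 185 FPKM for Hspa5, and above the 1/2 LD50 day 7 libraries, at 93.5 to 103 FPKM.

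The other genes that differed between the 2 doses included Per2, a clock repressor that also responds to glucocorticoids, at 7.44, 11.0 and 7.59 FPKM at 1/5 LD50 and 4.98, 4.88 and 4.27 FPKM at 1/2 LD50 (log2 0.74 ± 0.12, limma adjusted p = 0.00254). It lost the call without 1/5 LD50 replicate 2, its highest library (adjusted p = 0.0741). The 2 lower genes were Hecw2, a ubiquitin ligase, and the kinase Pak5, by 0.46 and 0.41 on the log2 scale (limma adjusted p = 0.00149 and 0.0369), and Pak5 lost the call without 4 of the 6 libraries (adjusted p up to 0.226). Neither they nor Per2 were called in a model of the 2 groups alone (adjusted p = 0.37 for each). None of the meningeal, channel, receptor, ribosomal, respiratory, proteasome, splicing, endothelial or immediate early gene lists had a member called between these doses.

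Against the same dose at day 3, 119 genes were higher at day 7 and 33 lower (0.809% and 0.224% of 14701 tested genes, 1.03% together). There were 1763 genes at an unadjusted p under 0.05, and the groups did not overlap for 10.1% of the genes with day 7 above and for 7.41% with it below. Of 32 immediate early genes 21 were higher, with a median of 0.70 against 0.01 for all tested genes, and of 21 ER chaperone and unfolded protein response genes 11 were higher, with a median of 0.39. None of either list was lower. Arc, which encodes a capsid-like protein of active synapses, was at 8.79, 9.31 and 20.4 FPKM at day 3 and 43.4, 62.1 and 53.3 FPKM at day 7 (log2 2.05 ± 0.22, limma adjusted p = 1.07e-06). Fos, the classic marker of recent firing, was at 1.49, 1.43 and 5.10 FPKM at day 3 and 11.3, 13.6 and 11.3 FPKM at day 7 (log2 1.96 ± 0.23, limma adjusted p = 4.31e-06). Day 3 replicate 3 was the highest of its group for both genes, and still below every day 7 library.

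Npas4, an activity-dependent transcription factor, was at 0.681, 0.674 and 1.26 FPKM at day 3 and 5.16, 4.88 and 3.46 FPKM at day 7 (log2 1.56 ± 0.20, limma adjusted p = 1.63e-05). In saline it was at 4.05, 3.57 and 4.23 FPKM, so that the day 7 libraries were near saline and the day 3 libraries below both. Nr4a1, Junb and Fosb were higher at day 7 by 1.49, 1.27 and 1.07 on the log2 scale (limma adjusted p = 0.000282, 7.65e-05 and 2.37e-06). Of the ER genes, Hspa5 was higher by 0.96, Sdf2l1 by 1.15 and Creld2 by 1.07 (limma adjusted p = 1.75e-05, 0.00218 and 4.01e-06). With each library of the 2 groups left out, 17 to 20 immediate early genes and 8 to 11 ER genes were higher. In a model of the 2 groups alone, 4 and 6 were called, and Arc and Fos were not (adjusted p = 0.0657 and 0.0958).

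Lower at day 7 than at day 3 were Col3a1 and Eln, genes of the extracellular matrix, but collagens as a list had 1 of 26 members lower and 1 (Col24a1) higher, with a median of 0.03. Col3a1 was at 4.86, 2.78 and 3.47 FPKM at day 3 and 2.04, 2.19 and 1.65 FPKM at day 7 (log2 -0.65 ± 0.13, limma adjusted p = 0.00669). Eln, elastin, was at 9.02, 6.69 and 7.72 FPKM at day 3 and 4.33, 4.56 and 3.43 FPKM at day 7 (log2 -0.79 ± 0.17, limma adjusted p = 0.0164). Both groups were apart, and both calls were lost without day 7 replicate 3 or day 3 replicate 1 (adjusted p up to 0.0896 and 0.117). Of the 20 meningeal markers 3 were lower, with a median of -0.30.

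Against 1/10 LD50 at day 7, 3212 genes were higher and 844 lower at 1/5 LD50 (21.8% and 5.74% of 14701 tested genes), or 2023 and 1886 with median-ratio scaling. The groups did not overlap for 20.3% of the genes with 1/5 LD50 above and for 9.29% with it below. This comparison rests on 2 libraries of 1/10 LD50 with high mitochondrial shares. Without them 7 genes were higher and 1 lower, and with the 2 groups alone none was called in either direction by limma, against 5762 genes at an unadjusted p under 0.05 in the model of all groups. Arc was at 16.0, 8.91 and 11.0 FPKM at 1/10 LD50 and 43.4, 62.1 and 53.3 FPKM at 1/5 LD50 (log2 2.08 ± 0.22, limma adjusted p = 1.89e-06), and the first library, which has an ordinary mitochondrial share, was also below every 1/5 LD50 library. COX1 was at 7939, 15022 and 15541 FPKM at 1/10 LD50 and 6621, 8687 and 7711 FPKM at 1/5 LD50, with replicates 2 and 3 of 1/10 LD50 far above the rest. The difference (log2 -0.69 ± 0.21, limma adjusted p = 0.0142) lost the call without either of these or 1/5 LD50 replicate 1 (adjusted p up to 0.129).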

How the data were processed

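RNA of mouse brain was captured on poly(dT) beads and sequenced, per the labels' protocols. HISAT2 and, for these mouse samples, the human build GRCh38 are named in the submitters' processing notes, without versions, so no coordinates of the files are used. The authors deposited FPKM values in 1 table of 47561 genes by 39 libraries. The program that computed them is not given in the sources used here. The depth, and so the precision of a single value, is unknown.

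The 14701 genes that reached 1 FPKM in 3 or more libraries were tested as log2(FPKM + 1) in 1 model of 13 groups over 39 libraries with limma 3.58.1 in R 4.3.3 (eBayes with trend, Benjamini-Hochberg threshold 0.05). The 1/5 LD50 day 7 group was compared with saline and directly with 3 other soman groups. Log2 differences are on this scale and understate those of low genes. Standard errors of log2 differences are from limma, and ± beside FPKM is the SD of 3 libraries. P-values measure only the spread between libraries, since the text calls them biological replicates without tying them to separate animals. Labels share replicate numbers, which did not pair the samples.

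The groups and the 54 gene lists were chosen with earlier results of these data known. Genes were named by rule: the 15 largest rises and falls and the 10 of smallest p against saline, up to 4 called members of smallest p of each list, Ache, Bche and Chat, and the 5 largest rises and falls of each direct comparison. A mean of 2 FPKM or more in either group was required of these genes except Ache, Bche and Chat. Genes given as the few called members of a list, and others of the immediate early and ER lists, the cerebellar list and the direct comparisons, were added after their values were seen. Some genes the rule names are not reported here. Lengths are of the longest GENCODE vM21 transcript, found for 96.0% of tested genes. Other settings tried were median-ratio scaling, a pseudocount of 0.1, all genes without a filter, only the groups compared, the replicate block, removal of each library's length trend (lowess, span 0.5), and leaving out libraries. The code was checked on simulated data. Figures and tables were made with Python 3.11.15, pandas 2.3.3 and matplotlib 3.10.9.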

Additional observations from a re-analysis of the deposited data

Results flagged for a closer look

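For the genes below, the difference between day 7 and day 3 at 1/5 LD50 passed the direct test (limma adjusted p under 0.05), so that the 2 days differ at the same dose. Immediate early genes were higher at day 7, by 2.05 for Arc, 1.96 for Fos, 1.56 for Npas4, 1.49 for Nr4a1, 1.27 for Junb, 1.07 for Fosb, 0.89 for Klf2, 0.76 for Egr3 and 0.55 for Egr2 on the log2 scale. Genes of the ER chaperone and unfolded protein response list were higher by 0.96 for Hspa5, 1.15 for Sdf2l1, 1.07 for Creld2, 0.84 for Pdia4, 0.84 for Manf and 0.88 for Xbp1. Tcte1, a dynein regulatory gene of cilia, was higher by 1.82, Mthfs, a folate enzyme, by 1.07, Gadd45b by 0.44 and Col24a1 by 0.35. Lower at day 7 were Eln (-0.79), Lgals3bp (-0.76), Mcm5 (-0.71), Col3a1 (-0.65), Igf2 (-0.53), Dcn (-0.51), Megf9 (-0.51) and Mrc1 (-0.40). The calls of Tcte1, Egr3, Gadd45b, Mcm5, Igf2, Dcn, Mrc1, Col24a1 and Lgals3bp were each lost without 3 or more of the 6 libraries, with adjusted p up to 0.138, 0.167, 0.231, 0.151, 0.221, 0.291, 0.186, 0.189 and 0.127. Those of Klf2, Eln and Col3a1 were lost without 2 (adjusted p up to 0.083, 0.117 and 0.0896), and that of Dcn also with the length trend removed (adjusted p = 0.0555).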

How the results depend on the processing

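The counts of genes higher and lower than saline (954 and 1304) ranged over the 6 libraries left out in turn from 332 to 778 and from 798 to 1116. Higher counts were 627 with no filter, 1462 with only the groups compared, 435 with the length trend removed, 1552 without the 2 libraries of high mitochondrial share and 237 without the 7 libraries that lie between the others of their group, and lower counts were 498 and 521 with the length trend removed and without the 7. Against 1/10 LD50 (3212 and 844) the counts were 2023 and 1886 with median-ratio scaling, 0 and 0 with only the groups compared, 1722 and 1390 with the length trend removed, 7 and 1 without the libraries of high mitochondrial share, 1819 and 341 without the 7, and 1125 to 4593 and 383 to 1112 with a library left out. Against 1/2 LD50 (15 and 2) they were 4 and 1 with only the groups compared and 8 and 1 without the 7, and the lower count was 4 with no filter or the length trend removed, 1 with the replicate block and 5 without the 3 libraries that lack cerebellar transcripts, with 6 to 13 and 1 to 4 over libraries left out. Against day 3 (119 and 33) they were 22 and 3 with only the groups compared, 190 and 61 without the libraries of high mitochondrial share and 78 and 16 without the 7, and 50 were lower without the 3, with 69 to 107 and 18 to 30 over libraries left out. The model of only the groups compared, and those without libraries, estimate the spread from fewer libraries. Beyond this the cause was not tested. With the replicate number as a block 954 rose and 1267 fell against saline. Deviations of same-numbered libraries of the 2 groups correlated at -0.154, -0.073 and 0.050, so that the numbers give no pairing.

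Signs turned for some differences from saline that were not called. Leaving out libraries gave -0.50 to 0.14 for Ttr, -0.47 to 0.17 for Pcp2, -0.0155 to 0.14 for Fos and -0.045 to 0.081 for Hspa5. Hspa5 was at 0.026 without the 7 libraries, and Fos at -0.043 with the length trend removed. Of the called genes, Slc1a2 and Prep turned with the length trend removed, to 0.028 and 0.036.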

Other observations

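Genes of neuropeptides and of striatal projection neurons were higher in part. Of 24 neuropeptide genes 3 rose (Penk, Tac1 and Tac2) and none fell, with a median log2 difference of 0.32. Of 18 striatal genes 3 rose (Penk, Tac1 and Rgs9), with a median of 0.18. Penk and Tac1 are thus counted in both lists, and over all tested genes 6.49% rose. Penk, the precursor of the enkephalins, was at 83.3, 84.7 and 86.1 FPKM in saline and 111, 109 and 127 FPKM after soman (log2 0.44 ± 0.13, limma adjusted p = 0.0197). Tac1, the precursor of substance P, was at 24.4, 28.3 and 27.6 FPKM in saline and 33.7, 36.8 and 39.3 FPKM after soman (log2 0.44 ± 0.14, limma adjusted p = 0.0268). The groups were apart for both, but no member of either list was called without soman replicate 3, saline replicate 1 or saline replicate 3, nor with the length trend removed.

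Some of the named rises belong to none of the lists. Mthfs, an enzyme of folate metabolism, was at 1.78, 1.48 and 2.94 FPKM in saline and 4.04, 4.44 and 6.13 FPKM after soman (log2 0.95 ± 0.20, limma adjusted p = 0.00191). Alkbh3, which repairs alkylated nucleic acids, was at 3.43, 4.08 and 3.89 FPKM in saline and 7.76, 7.55 and 6.82 FPKM after soman (log2 0.80 ± 0.16, limma adjusted p = 0.000941). Ctla2a, a cysteine protease inhibitor, was at 2.18, 1.74 and 1.69 FPKM in saline and 3.95, 4.11 and 4.05 FPKM after soman (log2 0.81 ± 0.17, limma adjusted p = 0.00149). All 3 were called with each of the 6 libraries left out in turn and with the length trend removed (adjusted p = 0.00419, 0.0298 and 0.0169).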
